A study of Mus musculus with 6 samples.

Results

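NF-κB subunit genes and genes of the IκB family were followed in skeletal muscle of mice with cancer cachexia. The set was listed by name, with 5 subunit genes (Rela, Relb, Rel, Nfkb1 and Nfkb2) and 5 IκB genes (Nfkbia, Nfkbib, Nfkbie, Nfkbiz and Bcl3), and 9 of the 10 had a named probe set among the 21212 of the arrays. Nfkb1 was not analysed here, because the annotation used names no probe set for it. This does not mean that the arrays lack the gene, and the counts and medians of the subunits are over the other 4. C26 muscles came from 4 male CDF1 mice inoculated under the skin of both flanks with C26 colon adenocarcinoma cells in PBS and matrigel. Control muscles came from 3 male CDF1 mice that received PBS and matrigel without cells. All mice were 8 weeks old at purchase, and the gastrocnemius and plantaris muscles were taken on day 25 after inoculation. RNA of 2 to 3 muscles of a group was pooled, and 3 C26 pools (replicates 1, 3 and 4) and 3 control pools (replicates 1, 2 and 3) were each hybridized to 1 whole-transcript array. Pools of a group may share a mouse, so the p-values measure only the spread between pools.

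NF-κB is a dimeric transcription factor held in the cytoplasm by IκB proteins. In the classical pathway the kinase IKKβ phosphorylates IκBα, IκBβ or IκBε, which are then degraded and release dimers of p65, c-Rel and p50 to the nucleus. In the alternative pathway the kinase NIK acts through IKKα on p100, whose product p52 enters the nucleus with RelB. IκBζ and Bcl-3 differ from the other family members in that they act in the nucleus on DNA-bound dimers. In muscle the pathway is known from atrophy of disuse, inflammation and cancer. For C26 muscle, however, the authors reported unchanged NF-κB reporter activity and no significant change in a gel shift assay. They also found IκBα, p100 and p52 protein unchanged, and little binding of p65 in ChIP-sequencing. The values given here are of RNA and measure neither protein nor activity.

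All values are log2 expression values computed by RMA, and changes are C26 minus control on that scale. The words rose and fell are kept for genes with an adjusted p of at most 0.05 by limma, taken over all probe sets, and a change of at least 1.5-fold (0.585 on the log2 scale). At these limits 5.94% of all probe sets rose and 4.95% fell. The array median was 4.93 to 4.96 in the C26 arrays and 5.00 to 5.02 in the control arrays. Every C26 median thus lay below every control median, and the effect of centring the arrays is given at the end. Arrays correlated at 0.994 to 0.996 within a group and 0.976 to 0.981 between groups. The level under which a probe set is not told apart from background was 3.82, the 95th percentile of 1248 olfactory and vomeronasal receptor probe sets. All 14 markers of skeletal muscle fibers, such as Ckm and Acta1, lay above it in both groups.

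Bcl3, Nfkbib and Nfkbiz rose among the 5 IκB genes, whereas Rela was the only one of the 4 measured subunit genes that rose, and no gene of either group fell. The median change was 0.63 over the IκB genes and 0.10 over the subunit genes, against −0.05 over all probe sets. With 5 genes, the IκB median is the change of Nfkbiz itself. Both counts of rises stand beside the 5.94% of all probe sets that rose, and since the genes were chosen by name for these data the counts are a description. With the adjusted p alone, 4 of the 5 IκB genes and 1 of the 4 subunit genes passed in the upward direction, where 14.3% of all probe sets did. All C26 pools lay above all control pools for the same numbers, 4 IκB genes and 1 subunit gene, and for 19.3% of all probe sets. None of the 9 genes had all C26 pools below all control pools, which held for 24.6% of all probe sets.

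**Figure D1:**
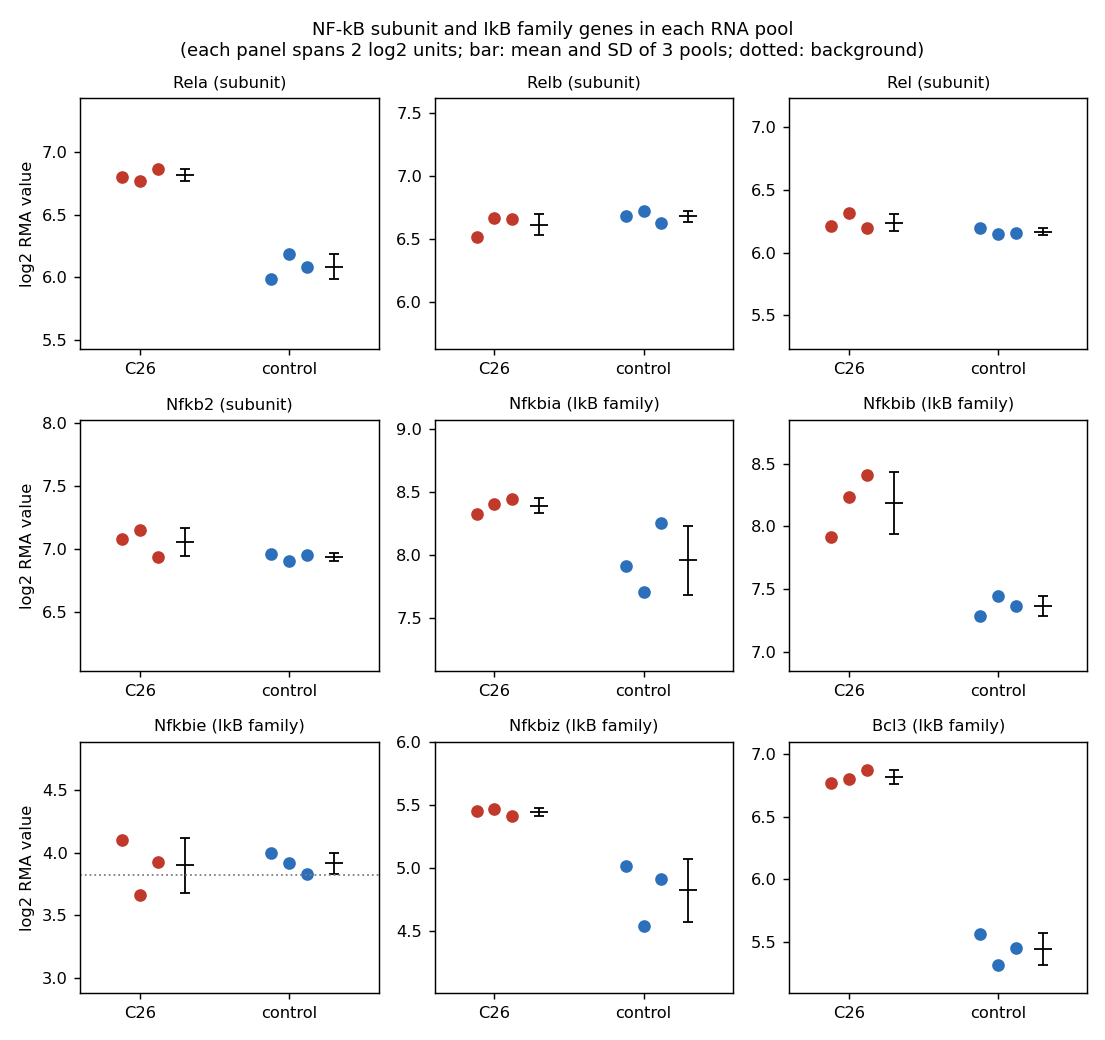
Log2 RMA value (y axis) of each measured NF-κB subunit and IκB gene in the 3 C26 pools (red, left) and the 3 control pools (blue, right), with the mean and SD of the 3 pools beside them; every panel spans the same number of log2 units and the dotted line is the background of 3.82. The C26 points stand clear of the control points for Rela, Nfkbia, Nfkbib, Nfkbiz and Bcl3, and mix with them for Relb, Rel, Nfkb2 and Nfkbie.

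Rela encodes p65, the subunit that carries the transactivation domain of the classical dimer. Its log2 value was 6.80, 6.77 and 6.87 in the 3 C26 pools, against 5.99, 6.19 and 6.08 in the 3 control pools. Every C26 pool was above every control pool. The change was 0.73 (SE 0.08, 95% confidence interval 0.54 to 0.91, adjusted p = 0.000259, limma), a rise of 1.66-fold. Rela rose under all 15 alternative settings, with changes of 0.68 to 0.79.

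The other subunit genes did not pass the test. Rel, which encodes c-Rel, the other transactivating subunit of classical dimers, was at 6.21, 6.31 and 6.20 in the C26 pools, against 6.20, 6.15 and 6.15 in the control pools. These ranges overlapped, and the change of 0.07 had an interval of −0.09 to 0.24 (adjusted p = 0.507, limma). Relb, whose product pairs with p52 in the alternative pathway, was at 6.52, 6.67 and 6.66 in C26 muscle, against 6.68, 6.72 and 6.63 in control muscle. The pools again overlapped, with a change of −0.06 and an interval of −0.24 to 0.11 (adjusted p = 0.59, limma). Nfkb2, the gene of p100 and p52, was at 7.08, 7.15 and 6.94 in the C26 pools, against 6.96, 6.90 and 6.95 in the control pools. C26 replicate 4 lay within the control range, and the change was 0.12 with an interval of −0.07 to 0.30 (adjusted p = 0.331, limma). The intervals of all 3 genes lay inside the 1.5-fold limits in both directions.

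Bcl3 had the largest change of the 9 genes. The Bcl-3 protein binds homodimers of p50 or p52 in the nucleus and can turn them into activators. Bcl3 was at 6.77, 6.80 and 6.87 in the C26 pools, against 5.57, 5.32 and 5.45 in the control pools. The C26 pools lay close together and far above the highest control pool. The change was 1.37 (SE 0.09, interval 1.17 to 1.57, adjusted p = 1.68e-05, limma), a rise of 2.58-fold, and all 15 alternative settings gave a rise of 1.27 to 1.43.

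Nfkbiz encodes IκBζ, the other nuclear member, which is needed for a set of late inflammatory genes in macrophages. It was at 5.45, 5.47 and 5.41 in C26 muscle, against 5.01, 4.54 and 4.91 in control muscle. The C26 pools were nearly equal, while control replicate 2 lay below the other control pools. The change was 0.63 (SE 0.12, interval 0.35 to 0.90, adjusted p = 0.00466, limma), a rise of 1.54-fold, which is just past the fold limit. The rise held in 11 of 15 alternative settings. Without control replicate 2 the change was 0.48, under the 1.5-fold limit.

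Among the cytoplasmic inhibitors, Nfkbib, the gene of IκBβ, was at 7.91, 8.23 and 8.41 in the C26 pools, against 7.28, 7.45 and 7.36 in the control pools. Every C26 pool was above every control pool, with C26 replicate 1 the nearest to them. The change was 0.82 (SE 0.12, interval 0.54 to 1.10, adjusted p = 0.00136, limma), a rise of 1.77-fold. It held in 14 of 15 alternative settings and was lost in the test with unequal variances (adjusted p = 0.097 in that test over all probe sets).

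Nfkbia, the gene of IκBα and a classical target of the factor that it inhibits, was at 8.33, 8.40 and 8.44 in C26 muscle, against 7.91, 7.70 and 8.25 in control muscle. The groups did not overlap, but control replicate 3 came close to the lowest C26 pool. The change of 0.44 (SE 0.13, interval 0.14 to 0.73, 1.35-fold) passed the adjusted p (0.0347, limma) and not the fold limit, and its adjusted p ran from 0.00419 to 0.252 over the alternative settings. Nfkbie, the gene of IκBε, was at 4.10, 3.66 and 3.93 in the C26 pools, against 4.00, 3.92 and 3.83 in the control pools. These values lie around the background of 3.82, overlap between the groups, and gave a change of −0.02 with an interval of −0.28 to 0.25 (adjusted p = 0.928, limma).

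**Figure D2:**
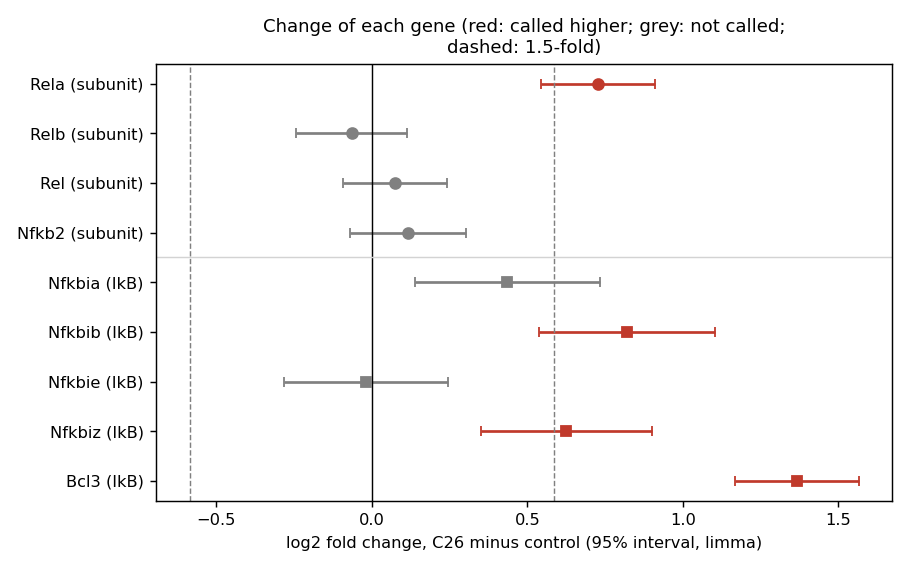
Change of each gene (x axis, log2, C26 minus control) with its 95% confidence interval from limma, subunit genes above and IκB genes below; red marks the genes that rose, grey those that did not pass, and the dashed lines the 1.5-fold limits. Bcl3 lies farthest to the right at 1.37, Nfkbiz at 0.63 is just past the limit, and the intervals of Relb, Rel, Nfkb2 and Nfkbie all span 0.

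Pool by pool, the changes of both groups of genes were set against each gene's mean in control muscle. The median shift of the IκB genes was 0.55, 0.65 and 0.59 in C26 replicates 1, 3 and 4, and 0.08, −0.13 and 0.01 in control replicates 1, 2 and 3. The median shift of the subunit genes was 0.09, 0.18 and 0.01 in the C26 pools and 0.01, 0.01 and −0.01 in the control pools. In every C26 pool the IκB median exceeded the subunit median, by 0.46, 0.47 and 0.58. The difference was 0.07, −0.14 and 0.02 in the control pools, which lie around 0 because the shifts are taken from the control means. No p is given for these medians, because the genes were chosen with results of these arrays known. The separation by role was not complete. Rela shifted by more in every C26 pool than Nfkbia, Nfkbie and Nfkbiz did, and by more than Nfkbib in C26 replicate 1, and Nfkbie stayed with the subunits that did not pass the test.

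**Figure D3:**
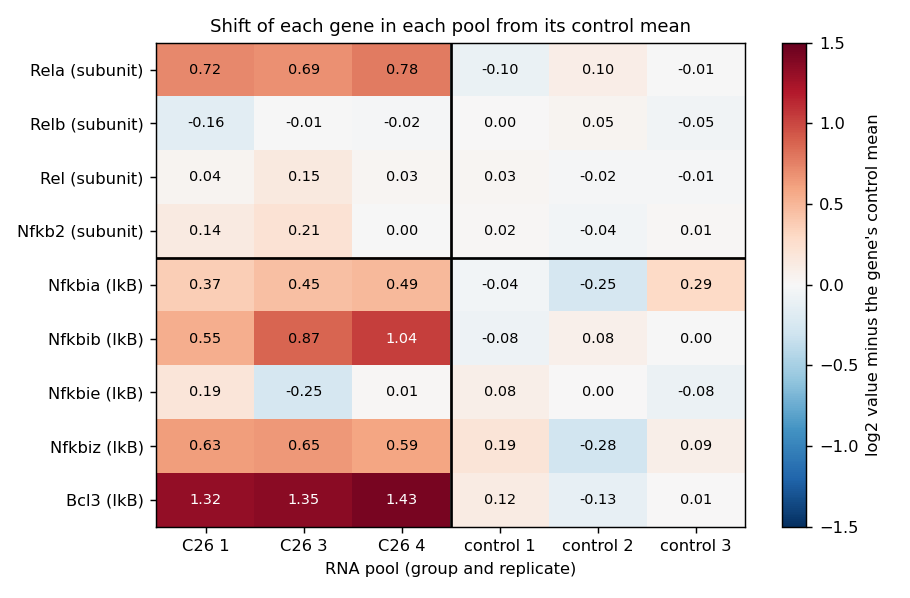
Shift of each gene (rows, subunits above the line) in each RNA pool (columns, C26 left and control right) from that gene's mean over the control pools, in log2 units given in the cells and by color. Bcl3, Nfkbib, Nfkbiz and Rela are red in all 3 C26 pools, Nfkbia is paler, and the rows of Relb, Rel, Nfkb2 and Nfkbie stay near white, −0.25 of Nfkbie in C26 replicate 3 being the farthest from 0.

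The promoters of these genes are shown because several of them, Nfkbia and Nfkb2 among them, are known targets of NF-κB itself. RefSeq promoters (GRCm38.p6, 250 bases before and 50 after a start site) were at hand for 7 of the 9 genes, in 9 entries of which 3 belong to Nfkb2. A loose κB motif, GGGNNNNNCC, and a strict one, GGGNNTTTCC, were searched on both strands, every strict match being a loose match as well. The loose motif was in 50.8% of 32851 promoters of that length and the strict one in 1.63%. In the sequences below, given 5′ to 3′ on the strand of the gene, capitals mark loose matches on either strand, merged where they overlap. Bcl3 had the largest rise, Rela was the subunit gene that rose, Nfkbia passed the adjusted p alone, and Nfkb2 did not pass.
Bcl3, chr7:19822706-19823005, minus strand: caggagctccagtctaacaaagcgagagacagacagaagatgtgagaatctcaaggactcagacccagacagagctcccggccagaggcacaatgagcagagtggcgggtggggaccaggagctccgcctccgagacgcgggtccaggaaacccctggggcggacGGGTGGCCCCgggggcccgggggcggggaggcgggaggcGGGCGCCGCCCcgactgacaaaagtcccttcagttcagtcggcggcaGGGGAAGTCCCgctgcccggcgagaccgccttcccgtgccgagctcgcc
Rela, chr19:5637291-5637590, plus strand: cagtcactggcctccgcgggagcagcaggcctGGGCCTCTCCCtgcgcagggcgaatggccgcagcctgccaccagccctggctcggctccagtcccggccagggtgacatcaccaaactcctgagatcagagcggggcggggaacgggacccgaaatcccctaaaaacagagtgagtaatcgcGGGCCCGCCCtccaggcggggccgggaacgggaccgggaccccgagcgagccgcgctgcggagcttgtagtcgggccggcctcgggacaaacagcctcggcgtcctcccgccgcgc
Nfkbia, chr12:55492598-55492897, minus strand: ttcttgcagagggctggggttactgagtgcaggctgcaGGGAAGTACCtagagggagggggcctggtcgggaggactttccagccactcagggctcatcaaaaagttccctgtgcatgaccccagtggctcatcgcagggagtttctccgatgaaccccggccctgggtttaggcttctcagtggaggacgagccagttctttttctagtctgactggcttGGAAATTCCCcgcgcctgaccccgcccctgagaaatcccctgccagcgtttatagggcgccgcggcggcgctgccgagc
Nfkb2 at the second start site, chr19:46305445-46305744, plus strand: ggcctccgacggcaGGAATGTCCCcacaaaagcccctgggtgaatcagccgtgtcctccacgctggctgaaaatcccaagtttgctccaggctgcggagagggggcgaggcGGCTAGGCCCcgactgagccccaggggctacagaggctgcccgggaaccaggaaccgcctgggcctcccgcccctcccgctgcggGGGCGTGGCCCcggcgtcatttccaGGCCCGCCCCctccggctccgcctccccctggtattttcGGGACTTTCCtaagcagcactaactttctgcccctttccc

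The strict motif was in the promoters of Nfkbia, Rel and Nfkb2 and in none of Bcl3, Rela, Nfkbib and Nfkbie. In Nfkbia it read GGGAATTTCC on the opposite strand, and its base farthest upstream lay 29 bases before the start site. In Rel it read GGGGATTTCC, also on the opposite strand. In Nfkb2 it read GGGACTTTCC at the second start site, a match that the overlapping promoter of the third start site shares, and GGGGCTTTCC at the first. Bcl3 held loose matches at 5 positions, of which the last pair, just after the start site, overlap in the run GGGGAAGTCCC. Nfkbib, which rose, held no loose match. None of the 3 genes that rose and have a promoter entry held the strict motif, which only 1.63% of all promoters hold. Nfkbiz, which also rose, has no promoter entry. Of the 3 genes that held the motif, Nfkbia passed the adjusted p and not the fold limit, and Rel and Nfkb2 passed neither. With so few genes and so rare a motif, the motif cannot be related to the changes. A match is a description of letters in a short window and neither a bound site nor a cause.

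Lists of related genes were followed at the same limits, where 5.94% of all probe sets rose and 4.95% fell. These shares stand beside the counts of each list below. Of 40 listed genes of the IKK complex, NIK and the adaptors, 34 were measured, 7 rose and 2 fell, with a median change of 0.01. The 2 falls are close to what the share of all probe sets would give. Map3k8, the kinase Tpl2 that is held by p105, was at 7.03, 7.07 and 6.90 in the C26 pools, against 5.28, 5.28 and 5.34 in the control pools, and rose by 1.70 (SE 0.08, adjusted p = 3.58e-06, limma). Map3k14, which encodes NIK, was at 6.34, 6.55 and 6.61 in the C26 pools, against 5.30, 5.44 and 5.34 in the control pools, and rose by 1.14 (SE 0.09, adjusted p = 5.29e-05, limma). Both kinases stood clear of the control pools in every C26 pool. Malt1, a paracaspase of lymphocyte receptor signaling, rose by 0.96. Rises were also seen in the Toll-like receptor adaptor Myd88 (0.88) and in Tbk1 (0.88), Fbxw11 (0.82) and Rnf31 (0.67). Tirap, another Toll-like receptor adaptor, fell by 1.01, and Ube2n, a ubiquitin-conjugating enzyme of the pathway, fell by 0.99. The IKK subunits themselves did not pass the test. Ikbkb, the gene of IKKβ, averaged 6.30 ± 0.05 in C26 and 6.45 ± 0.09 in control muscle (SD, 3 pools each; change −0.15, interval −0.33 to 0.04). Ikbkg, the gene of the scaffold NEMO, averaged 5.99 ± 0.06 in C26 and 5.87 ± 0.05 in control muscle (change 0.11, interval −0.06 to 0.28). Chuk, the gene of IKKα, was not analysed here.

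All 15 genes of a list of negative feedback on IKK were measured, of which 5 rose and 1 fell, with a median change of 0.36. With 15 genes, the median is the change of Birc3 itself. Birc3 passed the adjusted p (0.0175, limma) and not the fold limit, and is also on the target list below. The list is broad, and not every gene on it acts on IKK itself. Irak3, an inhibitory kinase relative of Toll-like receptor signaling, rose by 0.98 (SE 0.07, adjusted p = 2.98e-05, limma), and Tax1bp1, an adaptor of the A20 enzyme, by 0.99. Otulin, a deubiquitinase of linear chains, rose by 0.97, and Zfp36, which destabilizes cytokine mRNAs, by 0.96. Tollip, an inhibitor of interleukin-1 receptor signaling, rose by 0.83. The calls of Otulin (adjusted p = 0.0568) and Zfp36 (adjusted p = 0.108) were lost in the test with unequal variances over all probe sets, as were those of Malt1 (0.0588) and Ube2n (0.0839). Tnfaip3, the gene of A20 itself and like Nfkbia a classical feedback target, went the other way. It was at 4.11, 4.07 and 4.61 in the C26 pools, against 5.03, 5.15 and 4.90 in the control pools, and fell by 0.76 (SE 0.15, adjusted p = 0.00447, limma). C26 replicate 4 was the nearest to the control pools. The fall was lost in both t-tests. Of the 9 other IκB-like genes and nuclear regulators 8 were measured, none rose and 1 fell. This was Commd1, which promotes the removal of p65 from chromatin, at 3.90, 4.09 and 4.45 in the C26 pools, against 5.31, 4.61 and 4.87 in the control pools. Its fall of 0.79 (adjusted p = 0.0141, limma) was lost in both t-tests and without C26 replicate 1 or C26 replicate 3.

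Upstream, 7 of the 30 ligand and receptor genes rose and none fell, with a median change of 0.11, and 10 of the 30 lay under background in both groups. The receptors that rose were Tnfrsf12a, the receptor of TWEAK, by 1.02, Tlr4, the receptor of lipopolysaccharide, by 1.02, the interleukin-1 receptor gene Il1r1 by 0.87, Cd14, the co-receptor of Tlr4, by 0.83, Tnfrsf1a, the main TNF receptor, by 0.78, and Tlr5, the flagellin receptor, by 0.59. The call of Tnfrsf12a was lost in both t-tests and with the replicate block (adjusted p = 0.0684 to 0.118 over all probe sets), and those of Il1r1 (adjusted p = 0.0612) and Cd14 (adjusted p = 0.0766) with unequal variances. The cytokine gene Il1b was at 3.92, 4.15 and 4.16 in C26 muscle, against 3.36, 3.07 and 3.17 in control muscle. It passed both limits (adjusted p = 0.000385, limma), but all control pools lay under the background of 3.82, so no size of rise is given. Tnf averaged 3.66 ± 0.17 in C26 and 3.84 ± 0.05 in control muscle, at the background in both.

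Downstream, 45 of 48 textbook target genes were measured, of which 8 rose and 3 fell, with a median change of −0.02. Of the 45, 34 lay above background in both groups and 7 under it in both, and the median includes them all. The rises included Bcl3 itself, Lcn2, the gene of lipocalin 2, at 9.98, 10.4 and 10.5 in the C26 pools against 4.93, 5.05 and 4.74 in the control pools (change 5.40, adjusted p = 4.48e-07, limma), Ier3, an early response gene of cell survival, at 1.49, and Junb, an AP-1 subunit, at 1.13, whose call was lost with unequal variances (adjusted p = 0.064 over all probe sets). Ccnd1, the gene of cyclin D1, fell by 1.53 (adjusted p = 0.000241, limma). Cxcl10, the gene of the chemokine IP-10, averaged 3.46 ± 0.19 in C26 and 3.52 ± 0.19 in control muscle, under background in both (adjusted p = 0.767, limma). The other rises were in Il1b, in Saa3, an acute phase gene whose control level lay under background, and in Gadd45b (1.03) and Bcl2l1 (0.94), both genes of cell survival. Sod2, the mitochondrial superoxide dismutase gene, fell by 0.66 and Tnfaip3 fell as given above. The target list holds 6 of the 9 measured NF-κB and IκB genes, Rel, Relb, Nfkb2, Nfkbia, Nfkbie and Bcl3, of which Bcl3 alone rose. The 3 that it does not hold, Rela, Nfkbib and Nfkbiz, all rose. The list was written by name, so absence from it does not mean that a gene is not a target.

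**Figure D4:**
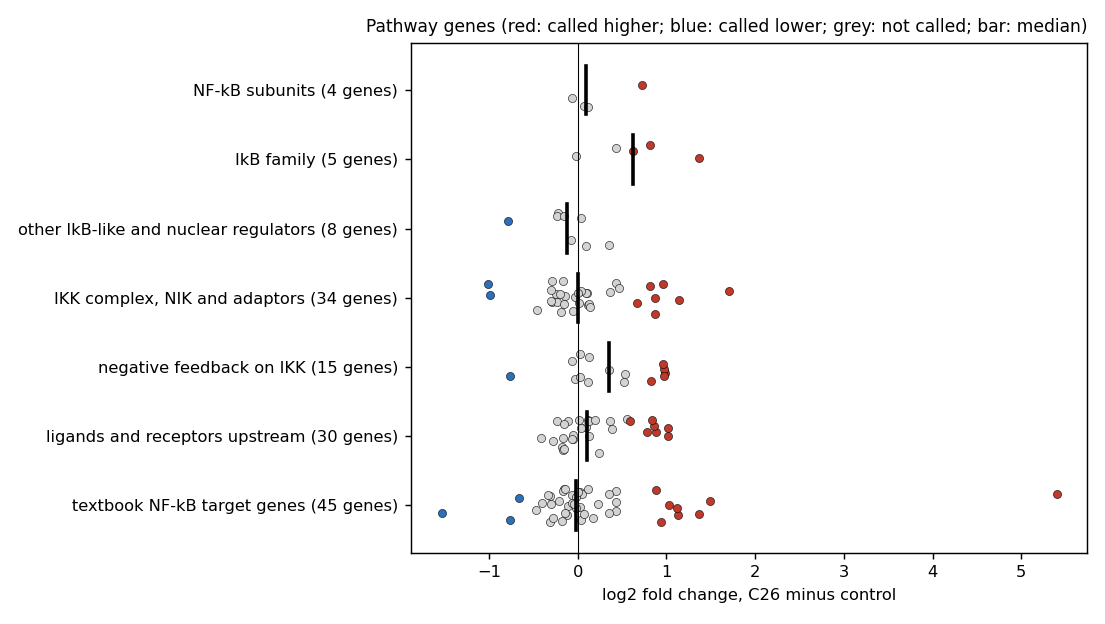
Change of every measured gene (x axis, log2, C26 minus control) of the subunit and IκB groups and of 5 lists of related genes (rows), with red for genes that rose, blue for genes that fell, grey for the rest, and a black bar at each median; points are spread vertically for view only. The bar of the IκB family stands at 0.63, that of the negative feedback list at 0.36, and the other bars lie between −0.12 and 0.11.

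In bulk muscle, a change in the number of cells of a type and a change in the RNA per cell cannot be told apart, and several genes above are abundant in leukocytes. Some markers of macrophages and neutrophils rose too, at limits where 5.94% of all probe sets rose and 4.95% fell. Of 15 macrophage markers 14 were measured, 7 rose and none fell, and their summed log2 level was 85.7 to 87.0 in the C26 pools and 78.4 to 79.7 in the control pools. The rises included Itgam (1.71) and Cd163 (1.28), while the defining genes Adgre1 (0.0016) and Csf1r (0.02) did not pass the test. Of 13 neutrophil markers 12 were measured and 7 rose. Of these 7, only S100a9 and Csf3r lay above background in both groups. S100a8, Cxcr2, Retnlg and Mmp8 lay under it in control muscle. Of the 12 markers 5, Ly6g, Mpo, Camp, Ltf and Ngp, lay under background in both groups, although Ngp passed both limits. The sum was 48.8 to 51.7 in C26 and 36.7 to 38.2 in control muscle. It includes the values under background, so it gives no size of rise. None of the 13 measured lymphocyte markers rose or fell, and 9 of them lay under background in both groups. Of 10 fibroblast markers 1 rose and 5 fell, of 10 endothelial markers 1 rose and 1 fell, and of the 14 muscle fiber markers 3 fell. The part of these cell types in the changes of the NF-κB and IκB genes was not tested.

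The genes whose profile over the 6 arrays was most like that of Bcl3 were sought among 12810 other named genes above background in both groups, each gene being set against its own mean in control muscle. The smallest root mean square differences from Bcl3 were 0.0606 for Elk4, an ETS transcription factor, 0.0722 for Zbtb10, a zinc finger repressor, 0.0785 for Ifi202b, an interferon-inducible gene, 0.0879 for Twf2, an actin-binding protein gene, and 0.0913 for Mphosph10, a gene of ribosomal RNA processing. These genes changed by 1.32 (Twf2) to 1.41 (Elk4). That this is close to the 1.37 of Bcl3 follows from how they were chosen. No member fell, so no such search was made for a fall.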

How the data were processed

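Total RNA pools of mouse gastrocnemius and plantaris muscle were hybridized to Affymetrix Mouse Gene 1.0 ST arrays, with RNA integrity numbers of at least 8. The authors used GenePattern to compute the deposited log2 values by RMA, and took the probe sets, 1 per gene, from version 13 of the Brainarray CDF. RMA corrects background, normalizes by quantiles and summarizes probes, so a gene's values are comparable between the 6 arrays, whereas levels of different genes are not. The sources used here name no genome build for the probes.

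From these values, 18782 of 21212 probe sets were named uniquely through the platform annotation and a RefSeq gene table. The groups were tested two-sided by the lmFit and eBayes functions of limma 3.58.1 (R 4.3.3), and p-values were adjusted by the Benjamini-Hochberg method over the whole table. The methods name a parametric t-test and do not state the variance assumption. Its form with equal variances is called the methods' t-test here, and the form with unequal variances was run as well. Further alternatives were a trended and robust prior, no fold limit, 3 rescalings, a background filter, a replicate block and leaving out each pool. Named were the listed genes, up to 5 called genes of largest change per pathway list, a few IKK pathway genes whatever their change, and the 5 profiles most like Bcl3. Myd88, Tbk1, Fbxw11, Rnf31, Birc3, Tnfrsf1a, Tlr5, Tnf, Saa3, Gadd45b, Bcl2l1, Sod2, Ckm, Acta1, and the named leukocyte markers were chosen after values were seen. The members and lists were chosen with earlier results of these data known. The scripts were tested on simulated data. Promoter matches were counted in Python 3.11.15. The number of arrays limits the precision.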

Additional observations from a re-analysis of the deposited data

How the results depend on the processing

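The rises of Rela and Bcl3 were called under all 15 alternatives, and Relb, Rel, Nfkb2 and Nfkbie under none. In the methods' t-test Nfkbiz (0.63, adjusted p = 0.0547) was lost, and 0 other IκB-like genes and 0 negative feedback genes fell. With unequal variances Nfkbib (0.82, adjusted p = 0.097) and Nfkbiz (0.63, adjusted p = 0.155) were lost, which left 1 IκB gene higher. That test called 760 probe sets higher and 621 lower, 0 other IκB-like genes lower, 1 gene of IKK, NIK and adaptors lower, 3 negative feedback genes higher and 0 lower, 4 ligand and receptor genes higher and 5 target genes higher. With no fold minimum, Nfkbia (0.44, adjusted p = 0.0347) was called, as were 3041 probe sets higher and 3344 lower. The lists then held 1 other IκB-like gene higher and 2 lower, 7 IKK, NIK and adaptor genes lower, 8 negative feedback genes higher, 2 ligand and receptor genes lower and 6 target genes lower. Leaving out 1 pool at a time, the change of Nfkbiz, and with it the IκB median, ran from 0.48 to 0.72. The count of other IκB-like genes lower ran from 0 to 1. The call of Nfkbiz was lost without control replicate 2 and the fall of Commd1 without C26 replicate 1 or 3. Centring arrays on their medians moved the median change of all probe sets to 0.02, against −0.05, and gave 1534 higher and 839 lower calls (64.6% higher, against 54.6% of the 1261 and 1049 calls as deposited).

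Replicate numbers 1 and 3 occur in both groups, but the deviations of same-numbered pools correlated at −0.06 and −0.06, so the numbers were not taken as pairs. Control replicate 2 and C26 replicate 4 have no pool of the same number in the other group. The fit with a replicate block therefore compares only the pools numbered 1 and 3. In that fit 1235 probe sets rose and 1069 fell. The change of Nfkbiz (adjusted p = 0.0295, limma) and the IκB median, which is the same value, were both 0.50, under the 1.5-fold limit. The causes of these differences were not tested. With 3 pools a group, genes near background such as Nfkbie are measured with little signal.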
